A study of Mus musculus with 13 samples.

Results

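Growth hormone (GH) acts on the liver through its receptor and the transcription factor STAT5, and 10 genes of this axis were followed across individual livers: Ghr, Stat5b, Socs2, Cish, Igf1, Igfals, Bcl6, Elovl3, Hsd3b5 and Hsd3b4. They were found on the array by their gene names, which gave 19 probes, none of them through an older name. They are 10 of the 27670 gene names on the array, and all 10 are among the 20403 genes tested. Their levels in each liver and the correlations between them are the measured values these genes were chosen by. They are therefore given below as a description, with no test. The differences between genotypes were tested in a linear model over all genes.

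The livers came from male C57BL/6 mice that ate a western-style diet rich in fat for 5 months. The 3 genotypes differ in SIRT1, an NAD-dependent protein deacetylase, at its threonine 522. The TAKI mice (n = 5) carried the SIRT1 TA knock-in allele, with alanine at that position, and the TEKI mice (n = 3) carried the SIRT1 TE knock-in allele, with glutamate. The WT mice (n = 5) had wild-type SIRT1. Each mouse was 1 array of total liver RNA, so replicates are animals, and diet, sex and strain were the same in all groups. The knock-in alleles are not stated to be restricted to the liver. The mice's age, the hour of sampling and their plasma GH are not given in the sources used here.

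As background, GH binds its receptor on hepatocytes, the associated kinase JAK2 phosphorylates STAT5A and STAT5B, and these enter the nucleus and bind DNA. The products include IGF1 and its circulating partner ALS, and the inhibitors SOCS2 and CISH, which dampen the signal. Male rodents release GH in pulses and females more continuously, and this difference drives many genes that are male-biased or female-biased in mouse liver. In bulk liver RNA, fewer cells of a type and less RNA per cell cannot be told apart.

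Levels are log2 intensities after subtraction of each array's 75th percentile, so a difference of 1 is a doubling of the signal. The level of 1 gene cannot be set against that of another, because probes differ in brightness. All 10 genes were well above background on all 13 arrays and none was saturated. The share of probes well above background was 59.8% to 72.6% on 12 arrays and 86.5% on that of TEKI replicate 1. That array also carried 87 non-uniform spots, the others 1 to 6. The 10 hepatocyte markers tested were above background on all 13 arrays, and the mean level of the list was 6.46 to 6.90 in TAKI, 6.51 to 7.09 in TEKI and 6.53 to 6.93 in WT livers. The arrays lay on 5 slides. Both TAKI slides held TAKI arrays alone, so that for TAKI against WT the genotype and the slide cannot be told apart, while the 3 TEKI arrays shared a slide with WT replicate 5. The 75th percentile itself lay between 9.37 and 10.20 on the log2 scale, and its relation to the 10 genes is given with the correlations.

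No member passed the test between genotypes. For TAKI minus WT, 0 of the 10 passed at an adjusted p of 0.05 (limma, Benjamini-Hochberg), where 2.77% of all genes tested passed. For TEKI minus WT it was 0 of 10 beside 0.00490% of all genes, and for TEKI minus TAKI 0 of 10 beside 3.40%. At an unadjusted p under 0.05 the counts were 1, 1 and 0 members, the 1 being Stat5b both times. The median difference of the 10 genes was -0.03 in TAKI and 0.05 in TEKI against WT, and 0.12 in TEKI against TAKI, where the medians over all genes were 0.00388, 0.08 and 0.07. Scaling the arrays to their medians moved those medians over all genes to -0.15, -0.33 and -0.19. Of the 10 genes, 5 were higher and 5 lower in TAKI than in WT, and likewise in TEKI than in WT. Single livers of 1 genotype differed by up to 381-fold for Hsd3b5, with a dim signal at the low end. For Stat5b they differed by up to 1.37-fold.

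**Figure D1:**
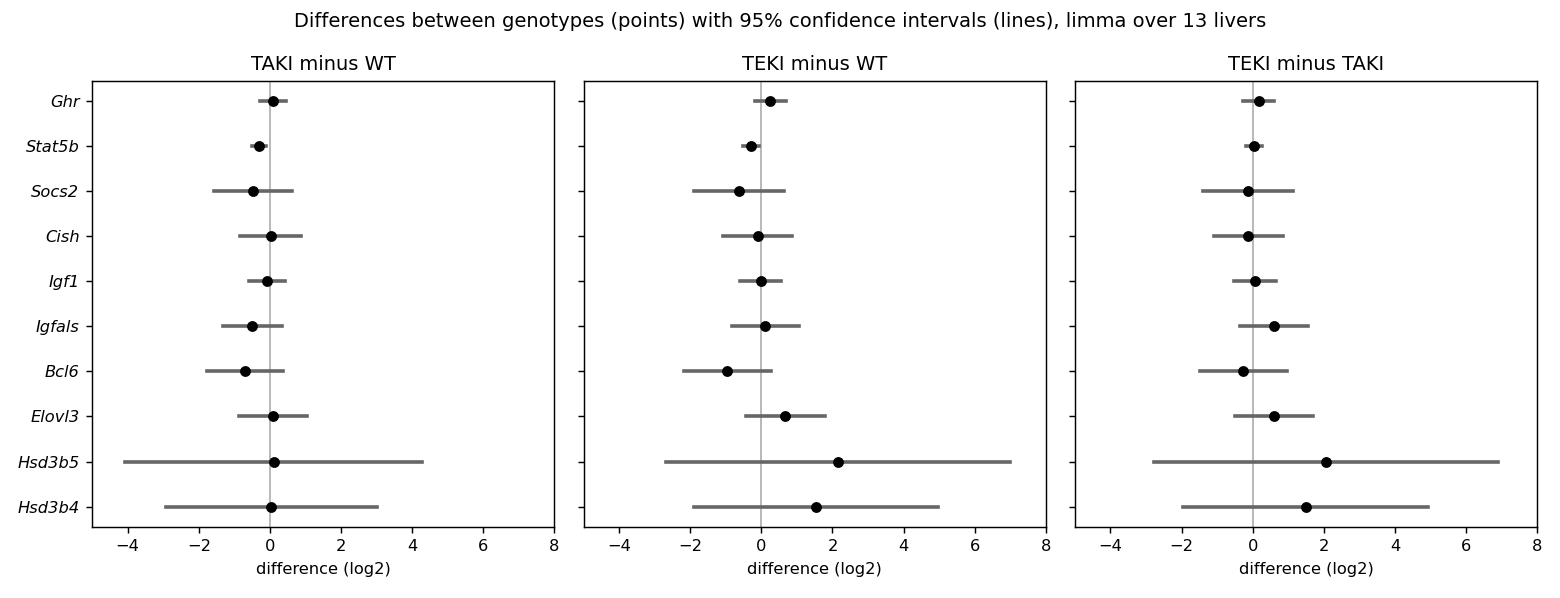
Differences between genotypes for the 10 genes (points, log2 scale) with their 95% confidence intervals (lines) from the model over 13 livers in 3 panels, the first 2 for each knock-in against WT and the last for TEKI against TAKI. The interval of Hsd3b5 runs from -4.08 to 4.28 for TAKI minus WT, while those of Stat5b lie below 0 for both comparisons with WT, at adjusted p-values that miss 0.05.

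Ghr encodes the GH receptor, from which all hepatic GH signalling starts. Its level was 5.98, 5.45, 6.12, 5.61 and 5.81 in TAKI livers 1 to 5, 6.01, 5.76 and 6.11 in TEKI livers 1 to 3, and 5.58, 5.50, 5.64, 5.56 and 6.26 in WT livers 1 to 5. The genotypes overlapped, and 4 of the 5 WT livers lay close together with WT replicate 5 above every other liver. TAKI minus WT came to 0.09 ± 0.17 (SE, adjusted p = 0.885 by limma), with a 95% confidence interval of -0.28 to 0.46. TEKI minus WT came to 0.25 ± 0.20 (adjusted p = 0.650 by limma), with an interval of -0.18 to 0.68. Ghr had 5 probes, and those designed on the same reference transcript correlated with the tested one at 0.78 and 0.93 over the 13 livers. The remaining 2, designed on cDNA clones, did so at 0.29 and 0.46. The tested probe lies on the minus strand at chr15:3153846-3153905 of the array design's build, mm7, and is shown because it is the stretch of the receptor transcript on which these levels rest.
Ghr probe: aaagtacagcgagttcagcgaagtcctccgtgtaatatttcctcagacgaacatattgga

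Stat5b encodes the STAT5 form that carries most of the male-biased GH response in mouse liver. It was the member with the lowest p between genotypes. Its level was 2.76, 2.75, 2.78, 2.81 and 2.70 in TAKI livers, 2.72, 2.77 and 2.88 in TEKI livers, and 3.02, 3.29, 3.09, 3.15 and 2.84 in WT livers. All TAKI livers lay below all WT livers, and WT replicate 5 fell within the range of TEKI. Groups that do not overlap occurred for 1 member here and for 7.39% of all genes in TAKI against WT. They occurred for 0 members and 3.66% of genes in TEKI against WT, and for 0 members and 8.23% in TEKI against TAKI. The TAKI minus WT difference was -0.32 ± 0.09 (adjusted p = 0.0967 by limma) and the TEKI minus WT difference -0.29 ± 0.10 (adjusted p = 0.397 by limma), so neither passed. Their 95% confidence intervals were -0.51 to -0.12 and -0.51 to -0.06.
Stat5b was also the one member whose variance lay mostly between genotypes, at 68.8% against 0.718% to 22.7% for the rest. With slide as a random block the TAKI minus WT difference was -0.31 (adjusted p = 0.124 by limma). On the slide that TEKI shares with WT replicate 5, the TEKI mean differed from that liver by -0.04. With limma's array weights TAKI minus WT was -0.37 (adjusted p = 0.00809), and without WT replicate 5 it was -0.38 (adjusted p = 0.0321 by limma); both would pass. A second probe on the same transcript differed by -0.01 ± 0.11 in TAKI and by 0.24 ± 0.12 in TEKI against WT, and its correlation with the tested probe was -0.27. With all probes of the gene averaged, TAKI minus WT was -0.09 (adjusted p = 0.894 by limma). The lower Stat5b signal was seen with 1 of its 3 probes, the brightest, at a mean level of 2.89. The others were far dimmer, at mean levels of -3.06 and -4.52, and the dimmest was above background on only 12 arrays. The average over all probes includes these dim probes.

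Socs2 and Cish encode inhibitors of the receptor complex that STAT5 itself induces, and they are common readouts of recent GH signalling. The Socs2 level was 0.13, -1.09, -0.000306, -1.10 and -0.68 in TAKI livers, -0.40, -0.05 and -1.61 in TEKI livers, and -0.85, -0.37, -0.53, -0.39 and 1.82 in WT livers. WT replicate 5 stood above all other livers, and the remaining values of the 3 genotypes overlapped. TAKI minus WT came to -0.48 ± 0.50 (adjusted p = 0.745 by limma) and the TEKI minus WT difference -0.62 ± 0.58 (adjusted p = 0.720 by limma). Their 95% confidence intervals were -1.58 to 0.61 and -1.88 to 0.64. Over the 13 livers Socs2 spanned 10.8-fold, which was more than any member but the Hsd3b genes. A second Socs2 probe followed the tested one at a correlation of 0.86.

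The Cish level was 1.26, -0.13, 0.65, 0.28 and 1.58 in TAKI livers, 0.47, 1.05 and 0.29 in TEKI livers, and -0.02, 0.51, 0.28, 0.96 and 1.83 in WT livers. WT replicate 5 was again the highest liver, and the groups overlapped throughout. The means were 0.73 ± 0.70 in TAKI (SD, n = 5), 0.60 ± 0.39 in TEKI (SD, n = 3) and 0.71 ± 0.72 in WT (SD, n = 5). The TAKI minus WT difference was 0.02 ± 0.39 (adjusted p = 0.992 by limma), with an interval of -0.83 to 0.86, and the sign turned when the arrays were scaled to their medians. The TEKI minus WT difference was -0.11 ± 0.45 (adjusted p = 0.959 by limma), with an interval of -1.08 to 0.87.

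Igf1 encodes insulin-like growth factor 1, most of which in blood comes from the liver under GH control. Its level was 6.30, 5.68, 6.55, 5.47 and 6.12 in TAKI livers, 5.91, 5.94 and 6.42 in TEKI livers, and 6.17, 5.67, 5.98, 6.06 and 6.66 in WT livers. The genotypes overlapped, with WT replicate 5 highest and TAKI replicate 4 lowest, and the span over all 13 was 2.28-fold. TAKI minus WT came to -0.08 ± 0.23 (adjusted p = 0.924 by limma), with a 95% interval of -0.59 to 0.42. TEKI minus WT came to -0.02 ± 0.27 (adjusted p = 0.990 by limma), with an interval of -0.60 to 0.57. The tested probe was printed on 10 spots per array, and a second probe on another reference transcript followed it at a correlation of 0.98. That second probe is shown as an independent sequence of the same gene. It lies on the plus strand at chr10:87471884-87471943 of build mm7.
Igf1 second probe: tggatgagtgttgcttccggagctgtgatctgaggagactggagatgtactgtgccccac

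Igfals encodes ALS, the acid-labile subunit that holds IGF1 in its long-lived complex in blood. Its level was 3.05, 1.45, 2.50, 1.24 and 1.91 in TAKI livers, 2.66, 2.34 and 2.91 in TEKI livers, and 2.35, 2.05, 2.41, 2.14 and 3.65 in WT livers. TAKI replicates 2 and 4 were the lowest livers and WT replicate 5 was the highest, with a span of 5.33-fold. The means were 2.03 ± 0.75 in TAKI (SD, n = 5), 2.63 ± 0.29 in TEKI (SD, n = 3) and 2.52 ± 0.65 in WT (SD, n = 5). The TAKI minus WT difference was -0.49 ± 0.38 (adjusted p = 0.637 by limma), with an interval of -1.31 to 0.33, and the TEKI minus WT difference was 0.11 ± 0.43 (adjusted p = 0.955 by limma), with an interval of -0.84 to 1.06. The gene had 1 probe, on the plus strand at chr17:23064462-23064521 of build mm7, which is shown because no other probe supports its values.
Igfals probe: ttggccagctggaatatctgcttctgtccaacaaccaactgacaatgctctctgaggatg

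Bcl6 encodes a transcriptional repressor that competes with STAT5 for its DNA sites and is male-biased in mouse liver. Its level was 3.63, 3.25, 2.88, 2.76 and 1.20 in TAKI livers, 2.83, 2.79 and 1.83 in TEKI livers, and 4.15, 4.12, 3.87, 2.30 and 2.75 in WT livers. The 3 highest livers were WT, but the other 2 WT livers lay inside the range of both knock-ins. TAKI minus WT came to -0.69 ± 0.49 (adjusted p = 0.599 by limma), with an interval of -1.76 to 0.38. The TEKI minus WT difference was -0.95 ± 0.57 (adjusted p = 0.525 by limma), with an interval of -2.19 to 0.28. The livers with high Bcl6, WT replicates 1 to 3, were not those with high Socs2, Cish or Hsd3b5. The 3 high livers lay on the 2 slides that held only WT arrays, as did WT replicate 4, the lowest WT liver.

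Elovl3 encodes a fatty acid elongase that is male-biased in mouse liver and also varies with the clock. Its level was 5.18, 2.85, 4.01, 3.18 and 3.79 in TAKI livers, 4.25, 4.00 and 4.94 in TEKI livers, and 3.70, 2.67, 4.35, 3.59 and 4.29 in WT livers. TAKI replicate 1 was the highest liver and WT replicate 2 the lowest, with 5.67-fold between them. The TAKI minus WT difference was 0.08 ± 0.44 (adjusted p = 0.963 by limma), with an interval of -0.88 to 1.03. TEKI minus WT came to 0.68 ± 0.51 (adjusted p = 0.633 by limma), with an interval of -0.43 to 1.78.

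Hsd3b5 encodes a steroid-metabolising enzyme of the hydroxysteroid dehydrogenase family that is close to male-specific in mouse liver and depends on pulsatile GH. Its level was 3.19, -4.37, 0.28, -5.24 and -0.43 in TAKI livers, 1.16, -1.80 and 2.87 in TEKI livers, and -0.23, -5.56, 0.04, -4.33 and 3.01 in WT livers. A gap between -4.33 and -1.80 set TAKI replicates 2 and 4 and WT replicates 2 and 4 apart at the low end. TAKI replicate 1, TEKI replicate 3 and WT replicate 5 stood at the high end. The highest liver had 433-fold the signal of the lowest, and the spread was 347-fold within TAKI, 25.4-fold within TEKI and 381-fold within WT. Before scaling, the lowest log2 signal was 4.35, in WT replicate 2, below the median of 6.34 on that array. The fold values therefore rest on dim signals at the low end, where they are imprecise.
With an SD of 3.15 over the 13 livers, Hsd3b5 ranked 1 of 20403 genes, where the median SD was 0.31 and the 95th percentile 1.16. Genotype accounted for 8.68% of its variance. TAKI minus WT came to 0.10 ± 1.92 (adjusted p = 0.991 by limma), with an interval of -4.08 to 4.28, and its sign turned in several alternatives. The TEKI minus WT difference was 2.16 ± 2.21 (adjusted p = 0.756 by limma), with an interval of -2.67 to 6.99, and against WT replicate 5 on the same slide it was -2.26. A difference between genotypes was not detectable with these numbers of animals.

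Hsd3b4 encodes a close family member of Hsd3b5. Its level was 3.40, -2.93, 0.79, -2.04 and -0.26 in TAKI livers, 1.60, -0.86 and 3.10 in TEKI livers, and 0.06, -2.54, 0.08, -2.19 and 3.34 in WT livers. The same 4 livers were lowest and the same 3 highest as for Hsd3b5. Its SD of 2.24 ranked 3 of 20403, and the span was 80.6-fold. The TAKI minus WT difference was 0.04 ± 1.36 (adjusted p = 0.995 by limma), with an interval of -2.94 to 3.02, and the TEKI minus WT difference was 1.53 ± 1.58 (adjusted p = 0.758 by limma), with an interval of -1.91 to 4.97. Hsd3b4 and Hsd3b5 are paralogues, so their 60-base probes were aligned without gaps. They matched at 21 positions at best, with a longest shared run of 6 bases. The probes of Hsd3b1, Hsd3b2, Hsd3b3, Hsd3b6 and Hsd3b7 correlated with Hsd3b5 at 0.51 to 0.86, and that of Hsd3b7 at 0.86 while its own level ran only between 6.87 and 7.19. The spots of Hsd3b4 and Hsd3b5 lie 1 row and 2 columns apart, and 42 other probes within 2 rows and 4 columns correlated with Hsd3b5 at a median of 0.35, from -0.81 to 0.81.

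**Figure D2:**
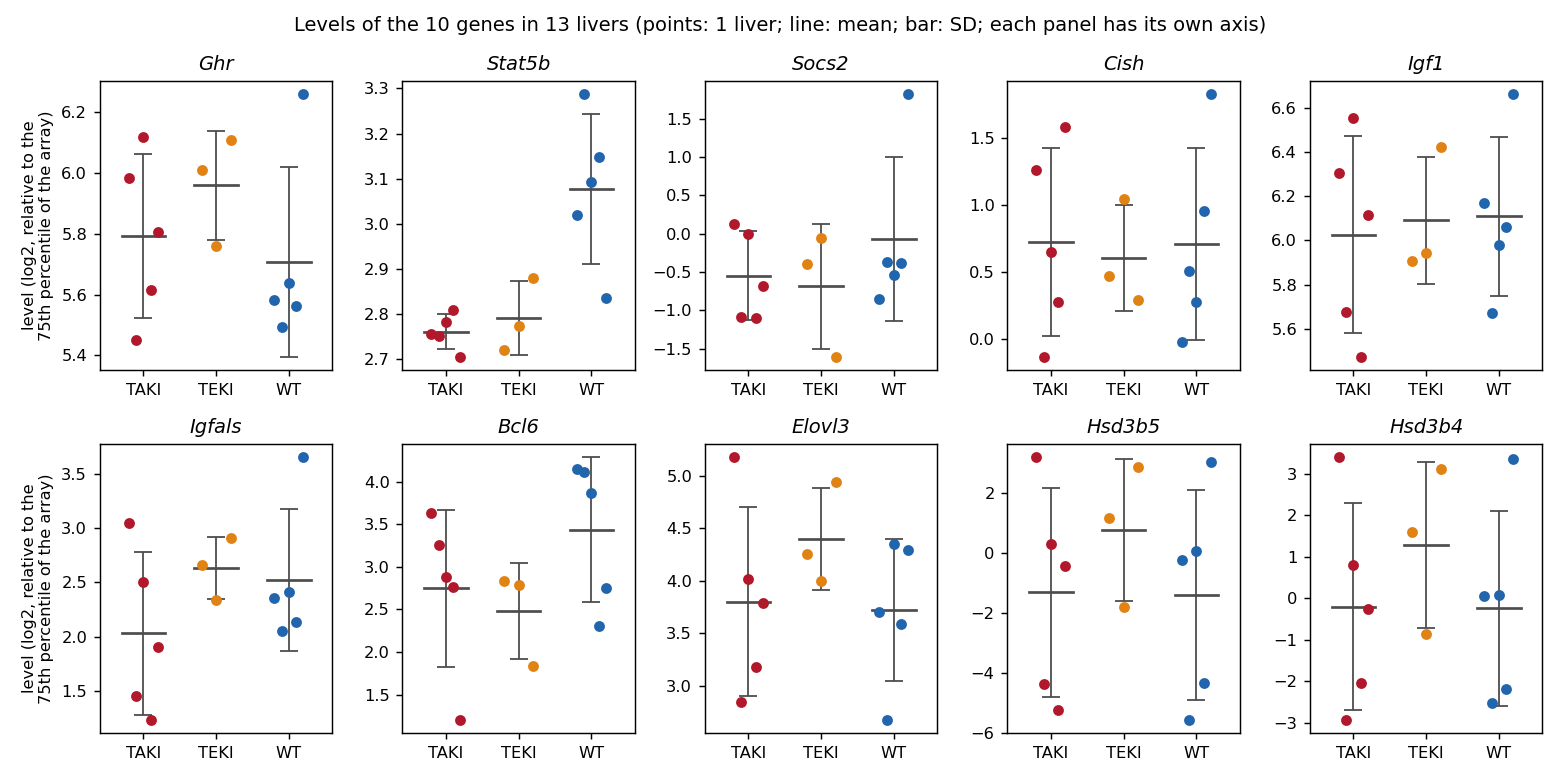
Level of each of the 10 genes in every liver (points; vertical axes in log2 above or below the array's 75th percentile, each panel with its own axis), with the mean (line) and SD (bar) of TAKI (n = 5), TEKI (n = 3) and WT (n = 5). For Hsd3b5 the points run from -5.56 to 3.19 with TAKI and WT points at both ends, while for Stat5b all TAKI points lie below all WT points.

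The order of the genotype means differed from gene to gene. TEKI had the highest mean for Ghr, Igfals, Elovl3, Hsd3b5 and Hsd3b4, WT had it for Stat5b, Socs2, Igf1 and Bcl6, and TAKI had it for Cish. Ranges of 1 SD about neighbouring means overlapped for all genes except Stat5b, whose WT mean of 3.08 ± 0.17 stood apart from 2.76 ± 0.04 in TAKI and 2.79 ± 0.08 in TEKI. The TEKI minus TAKI differences had adjusted p-values of 0.649 to 0.954 (limma). For Hsd3b5 the TEKI minus TAKI difference was 2.06 ± 2.21, with an interval of -2.77 to 6.89.

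Among Ghr, Igf1, Igfals, Elovl3, Hsd3b5 and Hsd3b4, a set put together after the values were seen, the 15 pairwise correlations over the 13 livers were 0.69 to 0.97, with a median of 0.83. The rank correlations were 0.66 to 0.97. Hsd3b5 correlated at 0.97 with Hsd3b4, 0.91 with Elovl3, 0.86 with Igfals, 0.84 with Ghr and 0.81 with Igf1. Socs2 and Cish correlated with each other at 0.73 but with Hsd3b5 at only 0.36 and 0.38. Bcl6 and Stat5b went with neither, at -0.15 and -0.41 with Hsd3b5. These correlations were among the values that chose the genes, and all points share the arrays' scaling.

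**Figure D3:**
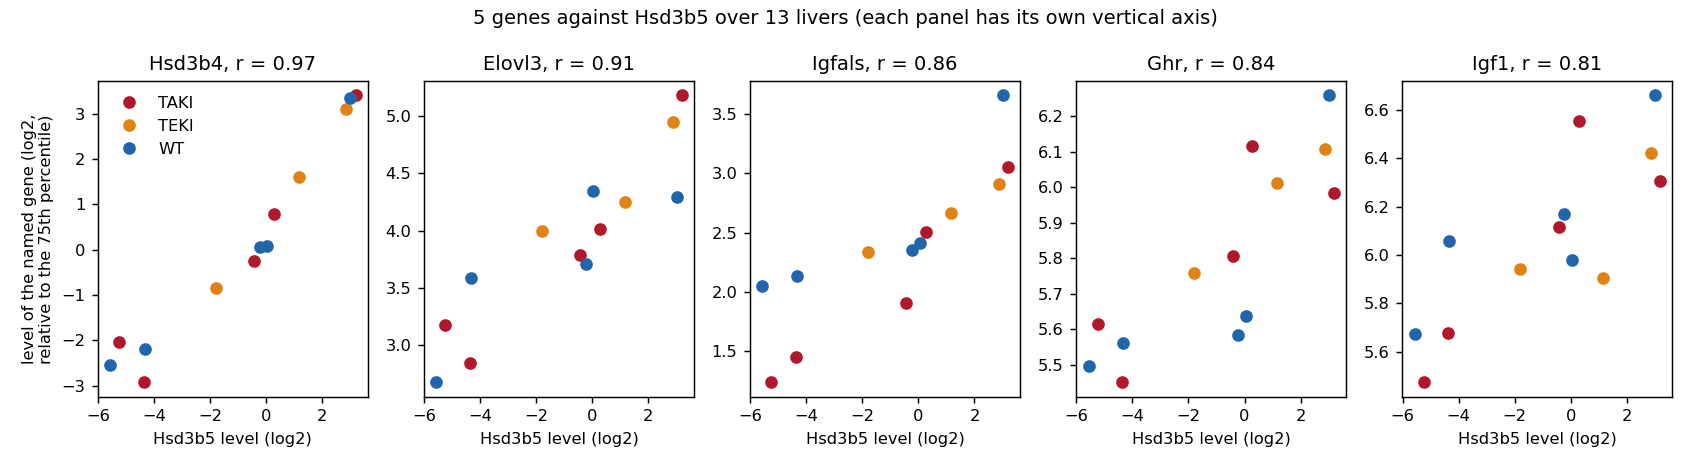
Levels of Hsd3b4, Elovl3, Igfals, Ghr and Igf1 (vertical axes, log2, each with its own scale) against the level of Hsd3b5 (horizontal axis, log2) in TAKI, TEKI and WT livers, 1 point per liver. Points of the 3 genotypes lie along the same path in each panel, with correlations of 0.97, 0.91, 0.86, 0.84 and 0.81, and the 4 livers at the low end are 2 TAKI and 2 WT livers.

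The joint variation was present inside genotypes. After each genotype's mean was subtracted, the 15 correlations were 0.71 to 0.97, and after each slide's mean was subtracted, over the 12 arrays that share a slide, they were 0.72 to 0.97. Without TEKI replicate 1, an alternative chosen after seeing the data, they were 0.73 to 0.97. In the 9 livers with Hsd3b5 above its gap, also chosen afterwards, they were 0.26 to 0.99, the lowest being Igf1 with Elovl3.

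The scaling of the arrays moved with these genes. The levels of Hsd3b5, Hsd3b4, Elovl3, Igfals, Igf1 and Ghr correlated with the array's 75th percentile at -0.69, -0.68, -0.67, -0.83, -0.73 and -0.59, and those of Socs2, Stat5b, Cish and Bcl6 at -0.32, -0.10, -0.11 and -0.04. On the log2 signals without any scaling, the 15 correlations were 0.30 to 0.97, with a median of 0.55. Hsd3b5 then correlated at 0.97 with Hsd3b4, 0.85 with Elovl3 and 0.82 with Igfals, but at 0.55 with Igf1 and 0.33 with Ghr. Stat5b correlated with Hsd3b5 at -0.82 there, against -0.41 with scaling. With the arrays scaled to their medians the range of the 15 was 0.51 to 0.97. The parallel course of Hsd3b5, Hsd3b4, Elovl3 and Igfals was thus present under each scaling. The correlations of Ghr and Igf1 with Hsd3b5 depended on it, at 0.54 and 0.52 under median scaling. Ghr and Igf1 correlated with each other at 0.80, at 0.92 under median scaling and at 0.60 on unscaled signals. The own ranges of Ghr and Igf1 were 0.81 and 1.19, beside the 0.83 spanned by the 75th percentile. The part of the scaling in their course was not tested.

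**Figure D4:**
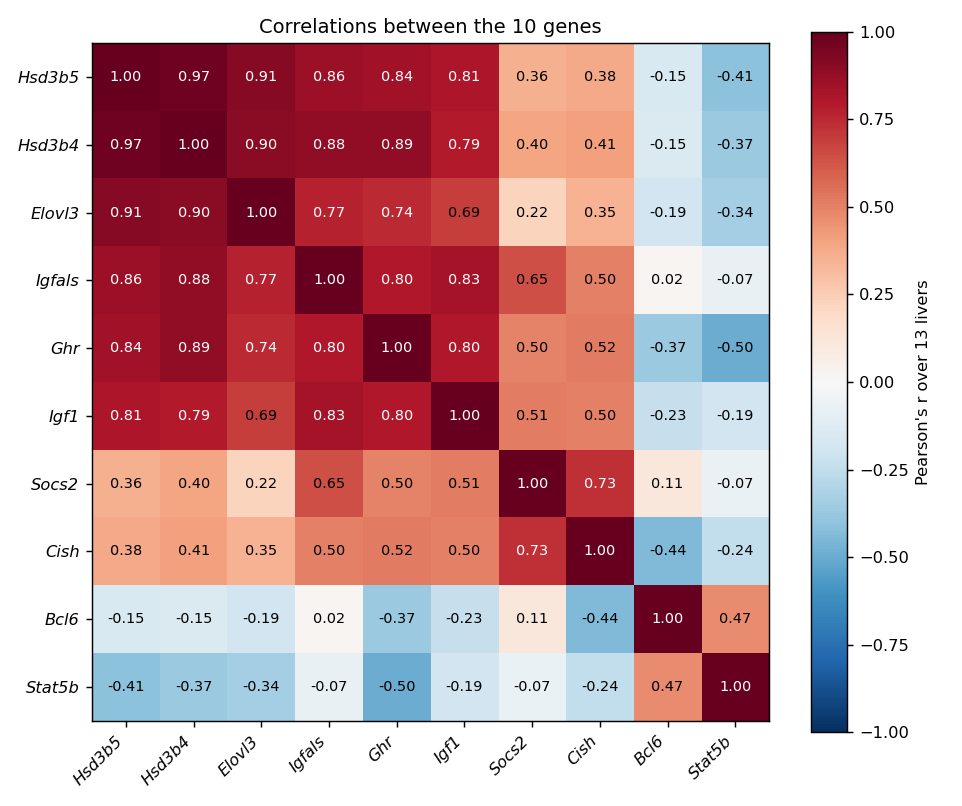
Pearson's correlations between the 10 genes over 13 livers, as a square matrix with the value in each cell and colour from -1 (blue) to 1 (red). The upper left block of Hsd3b5, Hsd3b4, Elovl3, Igfals, Ghr and Igf1 holds values of 0.69 to 0.97, Socs2 and Cish pair at 0.73, and Bcl6 and Stat5b have values between -0.50 and 0.47 with all others.

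STAT5 binds a palindrome of TTC and GAA with 3 bases between, TTCNNNGAA, which reads the same on both strands. It was searched in windows from 250 bases before to 50 bases after each transcript start in RefSeq on GRCm38.p6. Of all 32851 windows, 8.30% held at least 1 match and 0.457% at least 2. The table held windows for 8 of the 10 genes, and Cish, Bcl6 and Igfals had a match, in 5 of the 14 windows. Ghr, Igf1, Stat5b, Hsd3b4 and Hsd3b5 had none in these windows, and Socs2 and Elovl3 were not searched. The matches are shown with their neighbouring bases, because they are where the letters of the STAT5 motif stand near the starts of GH-responsive genes. Capitals mark the motif. They are at chr9:107296654-107296683 (plus strand) in Cish, where 2 motifs stand 11 bases apart, at chr16:23988946-23988975, chr16:23981427-23981456, chr16:23981381-23981410 and chr16:23981347-23981376 (minus strand) in Bcl6, and at chr17:24877603-24877632 and chr17:24878168-24878197 (plus strand) in Igfals.
Cish: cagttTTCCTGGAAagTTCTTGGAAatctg
Bcl6 a: attagTTCTCAGAAttccagaggccgagct
Bcl6 b: gcggcTTCCTGGAAagttacttctcgttgg
Bcl6 c: gagtgTTCTGTGAAatccttagagccgaga
Bcl6 d: ctacgTTCCGGGAAtgagagggctgtacca
Igfals a: ataatTTCTCAGAAaagaggctgaggaata
Igfals b: aggtgTTCCTAGAAgaggccctgggggagg
At least 3 matches in 1 window occurred in 0.0335% of all windows, and the window with Bcl6 matches b, c and d is 1 of these 11. Among the matched genes, Igfals correlated with Cish at 0.50 and with Bcl6 at 0.02, and Cish with Bcl6 at -0.44. A match is a run of letters and not a measured binding site.

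Other genes of the pathway were read from lists written with earlier results of these data known. Of 26 genes of GH receptor signalling and feedback, 25 were tested. In TAKI minus WT 0 rose and 0 fell, and the median difference was -0.04. In TEKI minus WT 0 rose and 0 fell, and the median was -0.02. By the smallest p in these comparisons, Ptpn2, a phosphatase that acts on JAK and STAT proteins, differed by -0.30 ± 0.09 in TAKI against WT (adjusted p = 0.106 by limma) and by -0.20 ± 0.10 in TEKI against WT (adjusted p = 0.458 by limma). Neither knock-in overlapped WT for Ptpn2, the only gene of the 25 for which this held in either comparison. Of all genes, 7.39% did not overlap in TAKI against WT and 3.66% in TEKI against WT. The nearest TAKI and WT livers stood at 2.164 and 2.167. Jak2, the receptor's kinase, differed by 0.24 ± 0.12 in TEKI against WT (adjusted p = 0.476 by limma).
In TEKI minus TAKI 1 of the 25 rose, a share near the 3.40% of all genes that passed there. It was Sh2b2, an adaptor that binds JAK2. Its mean was -0.96 ± 0.13 in TEKI (SD, n = 3) and -1.51 ± 0.25 in TAKI (SD, n = 5), a difference of 0.55 ± 0.14 (adjusted p = 0.0493 by limma). Sh2b2 averaged -1.11 ± 0.09 in WT, from which TAKI differed by -0.41 ± 0.12 (adjusted p = 0.108 by limma). Of 14 genes of the IGF axis, 13 were tested and none passed in either direction in any of the 3 comparisons, the lowest adjusted p being 0.284 (limma). Igf2r, which clears IGF2, differed by -0.42 ± 0.14 in TEKI against WT (adjusted p = 0.397 by limma), and the binding protein gene Igfbp5 by -0.63 ± 0.22 (adjusted p = 0.397 by limma).

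Male-biased liver genes other than the members varied with Hsd3b5. Of 35 such genes 30 were tested, and 17 correlated with Hsd3b5 at 0.7 or above, which 6.33% of all genes did. None correlated at -0.7 or below, which 4.75% of all genes did. The threshold of 0.7 was set after the values were seen. The median correlation of the list was 0.74 and that of all genes 0.18. On unscaled signals these medians were 0.46 for the list and -0.31 for all genes, and under median scaling 0.42 and -0.04, so the list's median stood above that of all genes under each scaling. The count at 0.7 or above was 8 on unscaled signals, where 0.530% of all genes reached it, and 10 under median scaling, where 0.902% did. Within genotypes the list's median was 0.75.
Examples picked after their values were seen were Slco1a1, an organic anion transporter, at 0.94 with a 21.6-fold span, Sult2a8, a sulfotransferase, at 0.93, and Cyp7b1, an oxysterol hydroxylase, at 0.92. Slco1a1 had levels of 2.01, -0.58, 1.23, -0.99 and 0.94 in TAKI livers, 0.89, 0.56 and 1.55 in TEKI livers, and 0.41, -2.16, 0.51, -0.33 and 2.27 in WT livers. Its 4 lowest livers comprised the low TAKI and WT livers of Hsd3b5. Egfr and Lifr, receptor genes of growth factor and cytokine signalling, both correlated at 0.91, and Mup3, a major urinary protein, at 0.86. Serpina12 went the other way, at -0.53. Between genotypes, 0 of the 30 rose and 0 fell in any of the 3 comparisons, and the lowest adjusted p was 0.278 (limma). Gna12, Cspg5 and Ugt2b38 had the smallest p in TAKI minus WT among its genes above background on every array of both groups, with differences of 0.17, 0.35 and 0.15 (adjusted p-values of 0.660 to 0.709 by limma).

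Female-biased liver genes lay on both sides of 0. Of 40 genes 33 were tested, with a median correlation with Hsd3b5 of -0.17. At -0.7 or below were 3 of them: Ntrk2 at -0.78, Prom1 at -0.76, though above background on only 4 arrays, and Akr1b7 at -0.71. At 0.7 or above were also 3: Cyp2g1 at 0.76, Acot3 at 0.73 and Cyp4a14 at 0.72. Of all genes, 6.33% lay at 0.7 or above and 4.75% at -0.7 or below, with a median of 0.18. The counts and shares depended on the scaling. On unscaled signals 0 of the list lay at 0.7 or above and 7 at -0.7 or below, with a median of -0.44. Of all genes 0.530% and 13.3% did so there, with a median of -0.31. Under median scaling the list's counts were 1 and 4, with a median of -0.27. The shares of all genes were then 0.902% and 2.78%, with a median of -0.04. Cyp2b9 and Cyp2b13, cytochrome P450s of female liver, stood at -0.67 and -0.66, and Cyp2a4, another, at 0.34. No female-biased gene passed in either direction in any of the 3 comparisons, the lowest adjusted p being 0.320 (limma). Cyp17a1, a steroid hydroxylase, had the smallest p in TAKI minus WT, at 0.40 ± 0.18 (adjusted p = 0.338 by limma).

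Genes of fatty liver that GH is known to oppose ran against Hsd3b5. All 10 had a negative correlation, with a median of -0.65, where 64.9% of all genes had a positive one. At -0.7 or below lay 3 of the 10 and 4.75% of all genes. The 3 were Scd2, a fatty acid desaturase, at -0.82, Fabp4, a fatty acid carrier, at -0.77, and Pparg, a lipogenic nuclear receptor, at -0.72. The list's median was -0.77 on unscaled signals and -0.49 under median scaling, where those of all genes were -0.31 and -0.04. At -0.7 or below were then 8 and 1 of the 10, beside 13.3% and 2.78% of all genes. Plin4 and Cidea, lipid droplet proteins, were close to none at -0.18 and -0.09. None of the 10 passed between genotypes, and the smallest p in TAKI minus WT was that of Plin4, at -0.35 ± 0.17 (adjusted p = 0.393 by limma).

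Lists of other hepatic responses lay nearer to all genes. The 20 clock genes had a median correlation with Hsd3b5 of 0.26, and none reached 0.7 in either direction, Hlf being highest at 0.58. Of 12 genes of fasting and glucocorticoid response, with a median of 0.26, Fgf21, a fasting hormone, stood at -0.73. Of 16 acute phase genes, with a median of 0.13, Il6ra, an interleukin receptor, stood at 0.77, while Saa1 and Saa2 were at 0.00307 and -0.06. The signalling list had a median of -0.05. In it Grb10, an adaptor that inhibits insulin and IGF receptors, stood at -0.91, and Onecut1, a transcription factor induced by GH, at 0.76. In the IGF list, with a median of -0.24, Igfbp2 and Igfbp4, binding proteins of IGF1, both stood at 0.78. These 4 genes were picked after their values were seen. Under median scaling 0 genes of either list lay at 0.7 or above and 0 at -0.7 or below. On unscaled signals 0 of either list lay at 0.7 or above. At -0.7 or below were then 4 of the signalling list and 2 of the IGF list, beside 13.3% of all genes.

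Markers of other liver cells moved with Hsd3b5 too. The 10 hepatocyte markers had a median correlation of 0.58 under the 75th percentile, 0.25 under median scaling and -0.000684 on unscaled signals. The medians of all genes were 0.18, -0.04 and -0.31, so the hepatocyte list stood above all genes under each scaling. The 6 cholangiocyte markers were all negative, with a median of -0.59. It was -0.63 under median scaling and -0.68 on unscaled signals. The 8 stellate cell markers had a median of -0.51, with 7 negative. Their median was -0.40 under median scaling and -0.72 on unscaled signals. At -0.7 or below lay 1 of the 6 cholangiocyte markers, Spp1 at -0.94, and 3 of the 8 stellate markers. The stellate markers were Pdgfrb at -0.86, Col3a1 at -0.81 and Col1a1 at -0.78. Of all genes 4.75% lay there. Under median scaling 2 markers of each of these lists did so, beside 2.78% of all genes. On unscaled signals 2 cholangiocyte and 5 stellate markers did so, beside 13.3% of all genes. The mean level of the stellate list was 0.97 to 2.05 in TAKI, 1.26 to 2.01 in TEKI and 1.33 to 2.04 in WT livers, and that of the cholangiocyte list was -2.29 to -0.65, -1.99 to -1.17 and -2.18 to -1.09. The 10 macrophage markers had a median of -0.29, the 8 endothelial markers -0.04, the 8 lymphocyte markers 0.28 and the 6 pancreatic acinar markers tested of 8 0.24. The part of cell composition in the variation of Hsd3b5 was not tested.
Between genotypes, 2 of the 8 lymphocyte markers rose in TAKI against WT, where 2.77% of all genes passed in either direction. Among them was Cd2, by 1.05 ± 0.14 (adjusted p = 0.00275 by limma), at dim mean levels of -3.46 in TAKI and -4.51 in WT. In this comparison genotype and slide cannot be told apart. No marker of the other cell types passed, and none of any type passed in TEKI against WT. The part of these markers in the Stat5b difference was not tested.

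**Figure D5:**
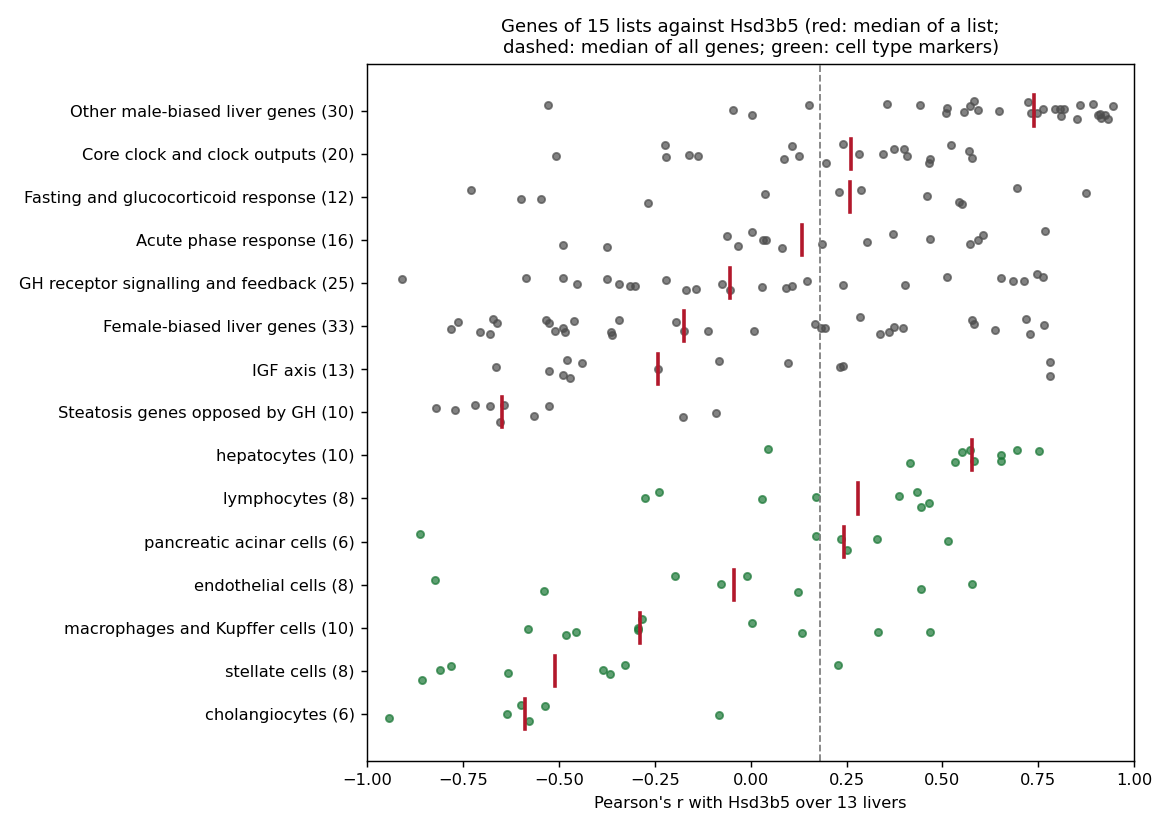
Pearson's correlation with Hsd3b5 over 13 livers (horizontal axis) for each tested gene (points) of 8 pathway lists (grey) and 7 cell type marker lists (green), with the median of each list (red line) and of all genes (dashed line, 0.18). The other male-biased liver genes lie furthest right with a median of 0.74, and the steatosis genes furthest left with a median of -0.65.

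The genes whose course over the 13 livers was most like that of Hsd3b5, among 13205 genes above background and unsaturated on all arrays, were Aspdh, Nop9, Ces4a and Serpine2, all at 0.96, and Ceacam1 at 0.95. Their spans ranged from 1.41-fold for Nop9 to 7.21-fold for Ces4a. The most opposite were Il33, an alarmin cytokine, at -0.97, Wfdc3 at -0.96, and Btc, Rhoj and Sestd1 at -0.95. Il33 stood at -1.97, -0.77, -1.71, -0.76 and -1.65 in TAKI livers, -1.61, -1.31 and -1.91 in TEKI livers, and -1.39, -0.78, -1.57, -1.08 and -1.92 in WT livers. It was highest in the 4 livers that were lowest in Hsd3b5.
For Elovl3 the most alike were Capn8 at 0.96, Gtf2i at 0.94, Serpine2 at 0.93, and Nop9 and Ces4a at 0.92. The most opposite were Samd9l, Ier3, Frk and Npdc1 at -0.92 and Il33 at -0.91. For Igf1 the most alike were Fetub, a hepatic secreted inhibitor of proteases, at 0.95, Calr3, H2bc12 and Mup3 at 0.94, and Hykk at 0.93. Among the most opposite were Pkmyt1, Cenpf and Neurl1b at -0.96 and Ccna2 at -0.95. Of these, Pkmyt1, Cenpf and Ccna2 act in cell division. Ccna2, cyclin A2, stood at -2.31, -1.09, -2.64, -0.90 and -2.22 in TAKI livers, -1.36, -2.001 and -2.83 in TEKI livers, and -2.59, -1.39, -1.73, -2.07 and -3.57 in WT livers. These correlations were the extremes of a search over all genes and are given as a measure of likeness.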

How the data were processed

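The deposited values are Cy3 spot intensities of 13 Agilent 1-colour arrays, background-subtracted by the authors' scanner software, Agilent Feature Extraction 9.5 per the submitters' processing notes, and not scaled between arrays. The deposited value table held the same intensities, with a largest difference of 0. Spots of a probe were averaged without outlier spots, taken to log2, and the array's 75th percentile was subtracted. Each gene was tested by its brightest probe on average, among probes well above background on 3 arrays or more, which left 20403 genes. limma 3.58.1 in R 4.3.3 fitted the 3 genotypes over 13 arrays, with Benjamini-Hochberg adjustment over all genes and a threshold of 0.05, and was tested on simulated data. Correlations and figures were made with numpy 2.4.6, pandas 2.3.3 under Python 3.11.15, and matplotlib 3.10.9.

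The members and lists were chosen with earlier results of these data known. Named genes were the members, up to 3 genes of smallest p per list for each knock-in against WT, and the 5 most alike and most opposite genes for Hsd3b5, Elovl3 and Igf1. Others are said to be chosen afterwards, and a few genes are not reported here. Same-numbered animals deviated together at correlations of -0.23 to 0.32, so the numbers were not taken as pairs. Alternatives were other scalings, background correction, filters, probe averaging, slide or replicate blocks, array weights and leaving out each array. Precision is limited by how many arrays there are.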

Additional observations from a re-analysis of the deposited data

Results flagged for a closer look

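In 20 groups of 5 livers (10 genes in TAKI and in WT), the distance of the end liver to its nearest neighbour was set against the range of the group. It exceeded Dixon's 95% critical value of 0.71 in 3 groups, all of them because of WT replicate 5. Chance flags about 1 in 20 independent groups. These groups are not independent, since they share livers and Ghr and Igfals correlate at 0.80, and the genes were chosen by these levels, so the gaps are a description of this liver and no test. Ghr was 6.26 in WT replicate 5 and 5.64 in the next WT liver, a gap of 0.813 of the range. Socs2 was 1.82 there and -0.37 in the next WT liver, a gap of 0.821 of the range. Igfals was 3.65 there and 2.41 in the next, a gap of 0.775 of the range. WT replicate 5 was also the only WT array on the slide of the TEKI arrays, and the part of slide in its high values was not tested. Its own 75th percentile was 9.44 on the log2 scale, where the 13 arrays ran from 9.37 to 10.20.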

How the results depend on the processing

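Over 700 alternatives for the 30 differences of the members, 635 kept direction and side of the threshold, 0 lost a call, 2 gained one (both Stat5b, TAKI minus WT, given above) and 63 reversed, none of them called. With arrays scaled to their medians, TAKI minus WT was -0.0708 for Ghr, -0.14 for Cish, -0.0781 for Elovl3, -0.0563 for Hsd3b5 and -0.12 for Hsd3b4, TEKI minus WT was -0.16 for Ghr and -0.30 for Igfals, and TEKI minus TAKI was -0.0884 for Ghr, -0.22 for Stat5b and -0.19 for Igf1. With all probes averaged, TAKI minus WT was -0.13 for Ghr and TEKI minus WT 0.0902 for Stat5b. With array weights, Igf1 was 0.0148 in TAKI minus WT and 0.15 in TEKI minus WT, and Bcl6 0.0228 in TEKI minus TAKI. With normexp, TAKI minus WT was -0.13 for Hsd3b5 and -0.0716 for Hsd3b4, and TEKI minus TAKI -0.00422 for Igf1, which was -0.0268 under quantile normalization. With slide as a fixed block, TEKI minus WT, which then rests on 1 WT array, was -0.30 for Ghr, -1.02 for Igfals, -2.26 for Hsd3b5 and -2.06 for Hsd3b4, and without a change of sign -2.51 for Socs2, -1.22 for Cish and -0.57 for Igf1. As a random block it gave -0.0145 for Hsd3b4 in TAKI minus WT. With a replicate block, which the numbers do not support as pairs, Cish was 0.19 in TEKI minus WT and 0.17 in TEKI minus TAKI, and Socs2 0.00594 in TEKI minus TAKI. Leaving out 1 array at a time gave, for TAKI minus WT, -0.20 to 0.30 for Cish, -0.22 to 0.0544 for Igf1, -0.27 to 0.32 for Elovl3, -1.03 to 1.21 for Hsd3b5 and -0.86 to 0.94 for Hsd3b4. Without a change of sign, TAKI minus WT ran from -0.68 to -0.0136 for Socs2, -0.98 to -0.31 for Bcl6 and -0.74 to -0.21 for Igfals, and TEKI minus WT from -0.94 to -0.15 for Socs2. For TEKI minus WT it gave -0.33 to 0.17 for Cish, -0.18 to 0.12 for Igf1 and -0.0238 to 0.395 for Igfals. For TEKI minus TAKI it gave -0.0140 to 0.0667 for Stat5b, -0.46 to 0.32 for Socs2, -0.35 to 0.0896 for Cish, -0.10 to 0.20 for Igf1 and -0.65 to 0.0649 for Bcl6. The cause was not tested. Genes passing in TAKI minus WT, 565 of 20403, were 969 under median scaling, 883 under quantile normalization, 238 with probes above background on all 13 arrays, 340 with the replicate block, 1323 with only the groups compared and 2292 with array weights. Without 1 array they were 287 to 1297, with 344 without WT replicate 2, 343, 370 and 287 without TAKI replicates 3, 4 and 5, and 1297 without TEKI replicate 1. Members passing there were 1 with array weights and 0 to 1 without 1 array, the 1 being Stat5b without WT replicate 5. In TEKI minus WT, 1 gene passed, 2334 had an unadjusted p under 0.05, and the count was 2 under median scaling, without a filter and with array weights, 5 under quantile normalization, and 0 with normexp, the all-array filter, the replicate block and the fixed slide block. Without 1 array it was 1 to 100, with 18 without WT replicate 5 and 3, 100 and 4 without TEKI replicates 1, 2 and 3. In TEKI minus TAKI, 694 genes passed, against 1123 under quantile normalization, 4114 with normexp, 295 with the all-array filter and 389 to 1069 without 1 array, the ends being without TEKI replicates 3 and 1. The 3 TEKI livers and the intervals of several log2 units for Hsd3b5 limit what these arrays can show.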
